A study of Drosophila melanogaster with 8 samples.

Results

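The proteasome subunit genes described here were read on Affymetrix arrays from the heads of adult Drosophila melanogaster. A probe set, the group of short probes that reads out 1 transcript, was taken when its only current gene symbol began with Rpn, Rpt, Prosalpha or Prosbeta followed by a number. This rule found 40 probe sets for 40 genes, out of 18952 probe sets on the array. Of these genes, 26 encode the standard subunits and 14 are paralogues, which carry T or R after the number in their symbols. The standard subunits comprise 12 of the 20S core (6 of the alpha ring and 6 of the beta ring), 7 of the base (4 ATPases and 3 subunits without ATPase activity) and 7 of the lid. All 26 standard subunits passed the filter on low signal, but only 2 of the 14 paralogues did, so 28 members were tested.

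The series compares heads with and without overproduction of Eyes absent (EYA), a phosphatase that also works in the nucleus as a coactivator of genes for eye formation. There are 4 groups of 2 arrays. Control flies were plain w1118, without driver and without UAS construct. The heat-shock driver Hsp-GAL4, which is active in cells throughout the body, was combined in each of the remaining groups with 1 transgene. These were UAS-EYA-wildtype in the first of them, UAS-EYA-D493N in the second and UAS-EYA-E728Q in the third. The labels describe D493N as an allele with less phosphatase activity and E728Q as one with little or none. Flies of all 4 groups, controls included, were of both sexes, were held at 37 C for 1 h and recovered at 25 C for 3 h, so no group shows the heads without heat. Their age is not given in the labels, and each RNA came from 200 pooled heads. Controls differ from the other groups in driver, transgene and strain, and these cannot be told apart. Nothing states that replicates came from separate cultures, so the p-values reflect only the spread between such samples, which may be technical. The probe set for eya itself was at a log2 fold change of -0.04 under wild-type EYA (adjusted p = 0.855), 0.46 under D493N (adjusted p = 0.0234) and 0.35 under E728Q (adjusted p = 0.0707). Whether its probes lie within the transgenes is not known here, so it does not check the labels.

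The 26S proteasome is the main machine for the degradation of ubiquitin-tagged proteins. Its 20S core is a barrel of stacked rings, in which the outer alpha rings gate the entry and the inner beta rings hold the proteolytic sites. The regulatory particle caps the barrel. Its base unfolds and threads the substrate with a ring of Rpt ATPases, and its lid removes the ubiquitin chain. In flies, as in mammals, subunit genes are known to be induced together through a Cap-n-collar transcription factor (CncC in flies), and proteotoxic stress such as heat raises the demand for the complex. Several paralogues are known as testis-type subunits that replace their standard counterparts in male germ cells.

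Standard subunits gave some of the strongest signals in the heads. Their signals, on a linear scale on which the median probe set of each array is 100, lay between 1166 and 6319. Their mean signals over the 8 arrays ran from 1613 to 5253 and fell between the percentiles 86.7 and 96.3 of all probe sets apart from the Affymetrix controls. Probe sets differ in how well they bind, so these levels do not rank the subunits against each other.

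Against control heads, nearly all standard subunits were called lower with either phosphatase mutant and a minority with wild-type EYA. A member was called when its adjusted p in the limma model of all 8 arrays, with Benjamini-Hochberg adjustment over the 11261 probe sets tested, was under 0.05. With EYA D493N, 24 of the 26 standard subunits were called lower, against 13.9% of all probe sets tested. With EYA E728Q, 22 of 26 were called lower, against 11.7% of all tested. With wild-type EYA, 6 of 26 were called lower, against 10.9% of all tested. No standard subunit was called higher with any transgene, while 11.4% of all probe sets were called higher under wild-type EYA, 14.0% under D493N and 11.8% under E728Q. At an unadjusted p under 0.05, 1 standard subunit was higher with wild-type EYA, against 1837 of the 11261 probe sets tested. With D493N and E728Q 0 were higher at that threshold, against 2120 and 1955 of all tested. Head RNA is a bulk measure, so fewer cells that express these genes and less RNA per cell cannot be told apart.

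The changes were mostly small and differed in size from subunit to subunit. The median log2 fold change of the 26 was -0.44 with D493N, a level of 73.8% of control, with members from -0.84 to 0.09. It was -0.34 with E728Q, or 79.1% of control, with members from -0.57 to -0.01. With wild-type EYA it was -0.15, or 90.1% of control, with members from -0.38 to 0.18. Over all probe sets tested, the medians were -0.02, 0.00 and -0.03 in the same order. The SD of the log2 fold change among the 26 was 0.18 with D493N, 0.13 with E728Q and 0.12 with wild-type EYA, against 0.61, 0.56 and 0.55 among all probe sets tested. Probe sets tested reach down to a mean signal of 38.1, far below these subunits, so the SDs are not of like sets. Comparisons with control share the same 2 control arrays.

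The same picture was present on the single arrays. The summed signal of the 26 subunits was 97455 and 84347 on the control arrays, 76721 and 77568 under wild-type EYA, 69023 and 69067 under D493N, and 73089 and 70910.2 under E728Q. All 6 EYA arrays were below both control arrays, and the groups did not overlap. By subunit, both D493N signals were below both control signals for 24 of 26, against 27.1% of all probe sets tested. For E728Q this held for 25 of 26, against 29.4% of all tested, and for wild-type EYA for 22 of 26, against 37.6% of all tested.

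**Figure D1:**
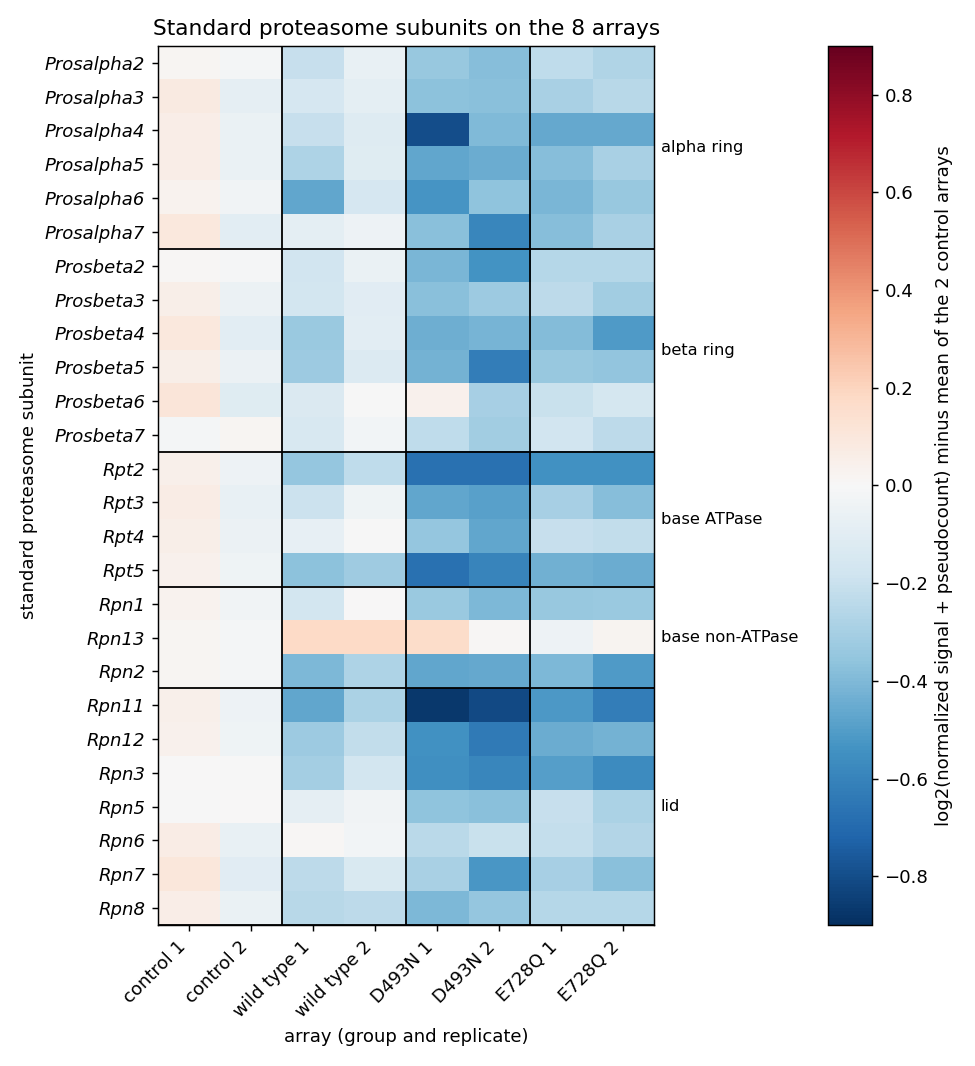
Each row is a standard subunit, grouped by subcomplex, and each column an array. Colour gives the normalized log2 signal minus the mean of the 2 control arrays. Blue fills the 2 D493N columns for nearly all rows, at a median of -0.41 and -0.43, and the rows of Rpn13 and Prosbeta6 differ most from the rest.

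The control arrays themselves differed, and the number of calls depended on them. Control replicate 1 had a higher deposited signal than control replicate 2 for 26 of the 26 standard subunits, by a median of 0.22 on the log2 scale, while the median over all probe sets tested was 0.08. After quantile normalization, which gives all arrays the same distribution of values, it was higher for 24 of 26, by a median of 0.10. Without control replicate 1, the subunits called lower numbered 12 with D493N, 6 with E728Q and 0 with wild-type EYA. Without control replicate 2, they numbered 22, 12 and 2. Among EYA arrays, leaving out E728Q replicate 1 or 2 left 7 or 6 subunits called with E728Q, and leaving out wild-type replicate 1 left 0 called with wild-type EYA. Calls that held under every alternative that tested the member were those of Prosalpha5, Prosbeta2, Prosbeta5, Rpt2, Rpt3, Rpt4, Rpt5, Rpn2, Rpn3, Rpn5, Rpn11 and Rpn12 with D493N. With E728Q they were those of Rpt2, Rpt5, Rpn2, Rpn3, Rpn11 and Rpn12, and with wild-type EYA no lower call held under every alternative.

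Measures of RNA quality differed between the groups. The ratio of 3' to 5' signal of the actin gene Act5C, which is higher where RNA is more degraded, was 4.15 and 4.29 on the control arrays and 4.28 and 4.35 under wild-type EYA. It was 4.84 and 5.11 with E728Q and 5.63 and 6.26 with D493N. The ratios for eIF4A were 2.51 and 2.73 on the control arrays, 2.89 and 3.23 under wild-type EYA, 3.02 and 4.05 under D493N, and 2.80 and 2.87 under E728Q, so the wild-type arrays lay above those of E728Q. The ratios for Gapdh1 were 1.72 and 1.78 on the control arrays and 1.97 and 1.72 under wild-type EYA. They were 2.05 and 2.05 under D493N and 1.94 and 2.03 under E728Q. By Act5C, by eIF4A and by Gapdh1, D493N included the highest ratio. The signal of the 18S rRNA 5' control probe set was 5619 on D493N replicate 1 and between 459 and 2196 on the other arrays. Without D493N replicate 1, the median log2 fold change of the standard subunits with D493N was -0.43. The D493N array that remained, replicate 2, had the highest Act5C and eIF4A ratios, so that fit cannot show what part RNA quality had. The part of RNA quality in the lower subunit signals was not tested.

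**Figure D2:**
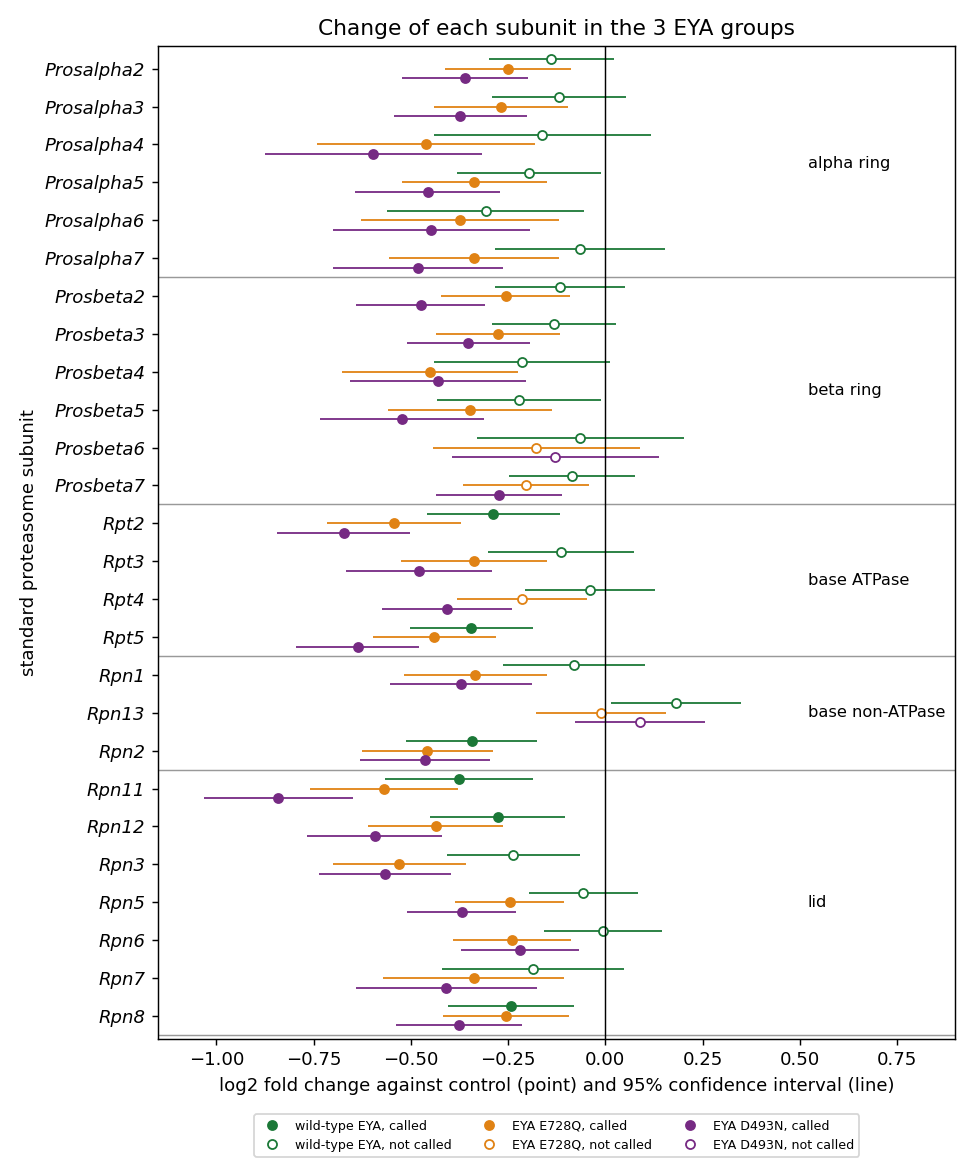
Points give the log2 fold change of each standard subunit against control in the limma model, and lines the 95% confidence interval, with 2 arrays per group. Filled points were called at an adjusted p under 0.05. The D493N point is the lowest of the 3 for 22 of 26 subunits, and the wild-type point is the highest for 26 of 26.

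In the alpha ring of the 20S core, all 6 measured members (Prosalpha2 to Prosalpha7) were called lower with D493N and with E728Q, and 0 with wild-type EYA. Their median log2 fold changes were -0.45, -0.34 and -0.15. Prosalpha4 changed most. Its signal was 2109 and 1798 on the control arrays, 1696 and 1698 under wild-type EYA, 1166 and 1558 under D493N, and 1447 and 1429.7 under E728Q. All EYA arrays were below both controls, and the 2 D493N arrays were far apart. The log2 fold change was -0.60 with D493N (SE 0.12, adjusted p = 0.00666), -0.46 with E728Q (adjusted p = 0.0257) and -0.16 with wild-type EYA (adjusted p = 0.408).

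For Prosalpha6, control signals were 2498 and 2194, and those with wild-type EYA were 1684 and 1984. The D493N arrays gave 1659.8 and 1913 and the E728Q arrays 1801 and 1869. Both mutant groups lay below both controls, as did wild-type EYA, and the 3 EYA groups overlapped each other. The log2 fold change was -0.45 with D493N (SE 0.11, adjusted p = 0.0167), -0.37 with E728Q (adjusted p = 0.041) and -0.31 with wild-type EYA (adjusted p = 0.0849). Prosalpha5 gave 4522 and 3805 in the controls, 3320.2 and 3498 under wild-type EYA, 2945 and 3129 under D493N, and 3171 and 3309 under E728Q. Its EYA signals were all below control, those of D493N were the lowest, and its log2 fold changes were -0.46 (SE 0.08, adjusted p = 0.00322) with D493N and -0.34 (adjusted p = 0.0171) with E728Q.

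The remaining alpha members, Prosalpha2, Prosalpha3 and Prosalpha7, were called with both mutants at log2 fold changes of -0.36, -0.37 and -0.48 with D493N and -0.25, -0.27 and -0.34 with E728Q. Prosalpha1 has no probe set of its own here. It shares a probe set with the paralogue Prosalpha1R, which therefore fell outside the rule. The signal of that shared probe set was 3616 and 3196 in the controls, 4298 and 4465 under wild-type EYA, 3680.0 and 3758 under D493N, and 4049.8 and 3914 under E728Q. All EYA arrays were above both controls, opposite to the other alpha probe sets. It was called higher with wild-type EYA, at a log2 fold change of 0.44 (adjusted p = 0.00301), and not called with D493N (0.11, adjusted p = 0.353) or E728Q (0.24, adjusted p = 0.052). Its 2 genes cannot be told apart.

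In the beta ring, 5 of 6 measured members were called lower with D493N, 4 with E728Q and 0 with wild-type EYA, at medians of -0.39, -0.27 and -0.12. The beta ring holds the active sites. Prosbeta5, the subunit with chymotrypsin-like activity, gave 5170.4 and 4430.2 in the controls, 3672 and 3939 under wild-type EYA, 3465 and 3144 under D493N, and 3688 and 3607 under E728Q. The groups fell in separate ranges from control, and D493N was lowest. Its log2 fold change was -0.52 with D493N (SE 0.09, adjusted p = 0.00311), -0.35 with E728Q (adjusted p = 0.0254) and -0.22 with wild-type EYA (adjusted p = 0.127).

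Prosbeta2, the subunit with trypsin-like activity, gave 4125 and 3708 in the controls, 3384 and 3398 under wild-type EYA, 2897 and 2767 under D493N, and 3294 and 3205 under E728Q. None of the 4 groups overlapped for this subunit. The log2 fold change was -0.48 with D493N (SE 0.07, adjusted p = 0.00143) and -0.26 with E728Q (adjusted p = 0.0341). The caspase-like subunit Prosbeta1 was not analysed here, because no probe set has that symbol.

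Prosbeta4, a structural beta subunit, gave 4072 and 3248 in the controls, 2825 and 3122 under wild-type EYA, 2657 and 2794 under D493N, and 2786 and 2516 under E728Q. Every EYA array was below both controls. It was called lower with D493N (-0.43, SE 0.10, adjusted p = 0.0115) and with E728Q (-0.45, adjusted p = 0.0111). Prosbeta3 was called with both mutants, at -0.35 and -0.28, and Prosbeta7 with D493N (-0.27) but not with E728Q (-0.20, adjusted p = 0.0711).

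Prosbeta6 was the only core subunit that was called in no comparison. It gave 4301 and 3379 in the controls, 3392 and 3482 under wild-type EYA, 3881 and 3181 under D493N, and 3338 and 3344 under E728Q. Wild-type EYA and D493N overlapped control, and both E728Q arrays lay just below the lower control array. The log2 fold changes were -0.06, -0.13 and -0.18 with wild-type EYA, D493N and E728Q (SE 0.12, adjusted p = 0.757, 0.472 and 0.332). Without D493N replicate 1 its D493N value was -0.30 (adjusted p = 0.0467), and without D493N replicate 2 it was 0.04.

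Core calls rested most on single arrays. Without control replicate 1, 3 of the 12 core subunits were called lower with D493N in place of 11, and 0 with E728Q in place of 10. Without E728Q replicate 1 or 2, 1 or 0 core subunits were called with E728Q. On the deposited values without quantile normalization, 4 were called with E728Q and 11 with D493N.

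The base ATPases form the ring that pulls substrates into the core. Of the 4 measured (Rpt2 to Rpt5), 4 were called lower with D493N, 3 with E728Q and 2 with wild-type EYA, at medians of -0.56, -0.39 and -0.20. Rpt1 and Rpt6 were not analysed here. Rpt2, known from yeast for its part in opening the gate of the core, gave 2818 and 2428 in the controls, 2018 and 2092 under wild-type EYA, 1672 and 1705 under D493N, and 1817 and 1799 under E728Q. No groups overlapped, and the replicates of each EYA group lay close together. Its log2 fold change was -0.67 with D493N (SE 0.08, adjusted p = 0.000247), -0.54 with E728Q (adjusted p = 0.00102) and -0.29 with wild-type EYA (adjusted p = 0.0247).

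Rpt5 gave 3441 and 3028 in the controls, 2442 and 2371 under wild-type EYA, 2053 and 2192 under D493N, and 2414 and 2349 under E728Q. All EYA arrays were below control, D493N was lowest, and wild-type EYA and E728Q overlapped. The log2 fold change was -0.64 with D493N (SE 0.07, adjusted p = 0.000216), -0.44 with E728Q (adjusted p = 0.00206) and -0.34 with wild-type EYA (adjusted p = 0.00746). The wild-type call of Rpt2 was lost without any of the control or wild-type arrays and that of Rpt5 without control replicate 1 or wild-type replicate 1, at values between -0.35 and -0.23 for Rpt2 and between -0.42 and -0.31 for Rpt5 over all alternatives.

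Rpt3 gave 3112 and 2634 in the controls, 2467 and 2598 under wild-type EYA, 2120.0 and 2116 under D493N, and 2357 and 2203 under E728Q. D493N was again lowest and apart from the rest, at -0.48 on the log2 scale (SE 0.08, adjusted p = 0.00269), and E728Q was called at -0.34 (adjusted p = 0.0177). Rpt4 was called with D493N (-0.41) and not with E728Q (-0.22, adjusted p = 0.0664) or wild-type EYA (-0.04, adjusted p = 0.764).

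The other base subunits bind ubiquitin and carry cofactors, and they diverged from each other. Rpn2, a large scaffold subunit on which Rpn13 docks, gave 3818 and 3455 in the controls, 2661 and 2761 under wild-type EYA, 2619 and 2728 under D493N, and 2752 and 2519 under E728Q. All EYA arrays were below both controls and the 3 EYA groups overlapped each other. Its log2 fold change was -0.34 under wild-type EYA (SE 0.07, adjusted p = 0.01), -0.46 under D493N (adjusted p = 0.00171) and -0.46 under E728Q (adjusted p = 0.00224).

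Rpn1, the other large scaffold, which binds shuttling ubiquitin receptors, gave 2599 and 2272 in the controls, 2138 and 2272 under wild-type EYA, 1969 and 1911 under D493N, and 1941 and 1944 under E728Q. Both mutants lay below control and below wild-type EYA. It was called with D493N (-0.37, SE 0.08, adjusted p = 0.00857) and E728Q (-0.33, adjusted p = 0.0167) and not with wild-type EYA (-0.08, adjusted p = 0.541).

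Rpn13, a ubiquitin receptor of the proteasome, was the only standard subunit whose value was above 0 in any comparison with control. Its signal was 3069 and 2779.8 in the controls, 3271 and 3098 under wild-type EYA, 3283 and 3073 under D493N, and 2897 and 2969 under E728Q. Wild-type EYA and D493N lay above both controls, and E728Q lay between the 2 control arrays. None of its log2 fold changes was called, at 0.18 under wild-type EYA (SE 0.07, adjusted p = 0.118), 0.09 under D493N (adjusted p = 0.431) and -0.01 under E728Q (adjusted p = 0.942). With wild-type EYA it was called higher where a D493N array was left out, with an adjusted p of 0.0351 or 0.0338. The ubiquitin receptor Rpn10 was not analysed here.

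The lid had 7 measured members, of which 7 were called lower with D493N, 7 with E728Q and 3 with wild-type EYA, at medians of -0.41, -0.34 and -0.24. Rpn9 was not analysed here. Rpn11, the metalloprotease that cuts the ubiquitin chain from the substrate, had the largest change of all standard subunits. Its signal was 4136 and 3575 in the controls, 2694 and 2901 under wild-type EYA, 2121 and 2232 under D493N, and 2682 and 2458 under E728Q. All EYA arrays were below both controls, and D493N was below the rest. Its level was 55.9% of control with D493N, 67.4% with E728Q and 77.0% with wild-type EYA, at log2 fold changes of -0.84 (SE 0.08, adjusted p = 0.00013), -0.57 (adjusted p = 0.0014) and -0.38 (adjusted p = 0.0122).

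Rpn8, the inactive partner with which Rpn11 pairs, was also called with all 3 transgenes, at -0.38 with D493N, -0.26 with E728Q and -0.24 with wild-type EYA. Rpn3, a scaffold subunit with a PCI domain, the helical module by which lid subunits join, gave 3338 and 3093 in the controls, 2538 and 2667 under wild-type EYA, 2229 and 2211 under D493N, and 2287 and 2161 under E728Q. Both mutants lay below wild-type EYA, which lay below control. It was called with D493N (-0.57, SE 0.08, adjusted p = 0.000608) and E728Q (-0.53, adjusted p = 0.0011) and not with wild-type EYA (-0.24, adjusted p = 0.0525).

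Rpn12, another PCI subunit, gave 2676 and 2322 in the controls, 1943 and 1988 under wild-type EYA, 1743 and 1654 under D493N, and 1852 and 1856 under E728Q. No groups overlapped. The log2 fold change was -0.59 with D493N (SE 0.08, adjusted p = 0.000538), -0.44 with E728Q (adjusted p = 0.0035) and -0.28 with wild-type EYA (adjusted p = 0.0306). The remaining PCI subunits Rpn5, Rpn6 and Rpn7 were called with both mutants, at -0.37, -0.22 and -0.41 with D493N and -0.25, -0.24 and -0.34 with E728Q. With wild-type EYA they were at -0.06, -0.01 and -0.19, and none was called. Without control replicate 1, 4 lid subunits were called with D493N, 3 with E728Q and 0 with wild-type EYA.

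With wild-type EYA, the 6 subunits called were Rpt2, Rpt5, Rpn2, Rpn8, Rpn11 and Rpn12, 3 of the base and 3 of the lid. In limma, 0 of the 12 core subunits were called with wild-type EYA. At an unadjusted p under 0.05, 3 of 12 were lower, against 17.5% of all probe sets tested. Whether the core and the regulatory particle differed was not tested. With E728Q, the 4 subunits that were not called were Prosbeta6, Prosbeta7, Rpt4 and Rpn13, and with D493N the 2 not called were Prosbeta6 and Rpn13.

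The EYA groups were compared directly, which does not use the controls as a reference. Against wild-type EYA, all 26 standard subunits had a negative log2 fold change with D493N, with a median of -0.28 and a range from -0.46 to -0.06. Rpn11 alone was called lower, 1 of 26, against 0.622% of all probe sets tested, and 0 of 26 were called higher, against 0.533%. The log2 fold change of Rpn11 was -0.46 (95% interval from -0.66 to -0.27, adjusted p = 0.0424). At an unadjusted p under 0.05, 19 of 26 were lower with D493N, against 7.58% of all tested. The Rpn11 call was lost on the deposited values and, among other alternatives, without either array of the control, wild-type or E728Q group. Without D493N replicate 1 or 2, the number called lower was 5 or 9.

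Between E728Q and wild-type EYA the median was -0.16 and all 26 values were negative, from -0.30 to -0.01. No standard subunit was called in limma, while 0.355% of all probe sets were called lower and 0.355% higher. At an unadjusted p under 0.05, 12 of 26 were lower, against 5.21% of all tested. D493N against E728Q gave a median of -0.12, with 22 of 26 values negative and a range from -0.27 to 0.10. Again no subunit was called in limma, against 0.0799% of all probe sets lower and 0.0888% higher. At an unadjusted p under 0.05, 4 of 26 were lower, against 6.33% of all tested. The largest difference between the mutants was that of Rpn11, at -0.27 (95% interval from -0.46 to -0.08, adjusted p = 0.244). The pairwise medians moved with scaling. On the deposited values that of D493N against wild-type EYA was -0.16 and that of E728Q against wild-type EYA was -0.08, over the 28 members tested.

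Most of the 14 paralogues were near the bottom of the signal range. The 12 that did not pass the filter gave signals from 1.24 to 51.4, and the highest mean over the 8 arrays was 25.3. The added constant in the log2 transformation, the pseudocount, was 17.5, and 3 of the paralogues were below it on all arrays. Markers of testis and accessory gland were likewise low in these heads, with a summed signal of 11 genes between 231 and 496 per array. The 4 of these 12 with the highest means were Rpn12R, Prosalpha3T, Rpt4R and Prosbeta4R2. Rpn12R gave 43.7 and 28.5 in the controls, 7.14 and 43.8 under wild-type EYA, 5.59 and 13.7 under D493N, and 22.7 and 36.9 under E728Q. Prosalpha3T gave 22.1 and 23.6 in the controls, 1.68 and 17.5 under wild-type EYA, 1.72 and 24.3 under D493N, and 41.2 and 36.9 under E728Q. The wild-type replicates of both genes lay far apart, as did the D493N replicates of Prosalpha3T. Both E728Q signals of Prosalpha3T were above both of its control signals. In the fit without a filter, neither gene was called against control.

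Prosbeta2R2, a paralogue of the trypsin-like beta subunit, was 1 of the 2 paralogues that passed the filter. Its signal was 7.95 and 32.2 in the controls, 279 and 258 under wild-type EYA, 311 and 257 under D493N, and 220.2 and 211 under E728Q. Every EYA array was far above both controls, and 1 control array lay below the pseudocount. The mean of its control signals, 20.1, was under the lowest mean of any tested probe set, 38.1. Prosbeta2R2 therefore passed the filter only through its EYA signals, so its p-values are not free of that selection. It was called higher with all 3 transgenes, at log2 fold changes of 3.03 (adjusted p = 0.000111), 3.05 (adjusted p = 9.09e-05) and 2.71 (adjusted p = 0.00021), each with an SE of 0.28. Because control signals were so low, the size depends on the pseudocount and ranged from 2.23 to 3.67 with wild-type EYA over the alternatives that tested it. Its standard counterpart Prosbeta2, described above, was lower with both mutants.

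The genes next to Prosbeta2R2 in the fly genome, chosen after its values were seen, were read as well. Of the 8 nearest with a probe set, 4 on each side, 6 were tested. On 1 side of it, the second gene, CG2604, gave 3176 and 3242 in the controls, 4755 and 4405 under wild-type EYA, 5684 and 4360.2 under D493N, and 3933 and 4507 under E728Q. It was called higher with wild-type EYA (0.59, adjusted p = 0.0158) and D493N (0.62, adjusted p = 0.0102) and not with E728Q (0.40, adjusted p = 0.0707). The other 5, cno, dpr16, CG1116, CG14664 and Vps37B, were called in none of the 3 comparisons with control.

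Rpn13R, the paralogue of the ubiquitin receptor Rpn13, gave 75.5 and 84.7 in the controls, 60.9 and 60.6 under wild-type EYA, 82.6 and 80.1 under D493N, and 63.5 and 104 under E728Q. Only the wild-type group lay apart from control, and no comparison was called (log2 fold changes of -0.31, 0.01 and 0.02).

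**Figure D3:**
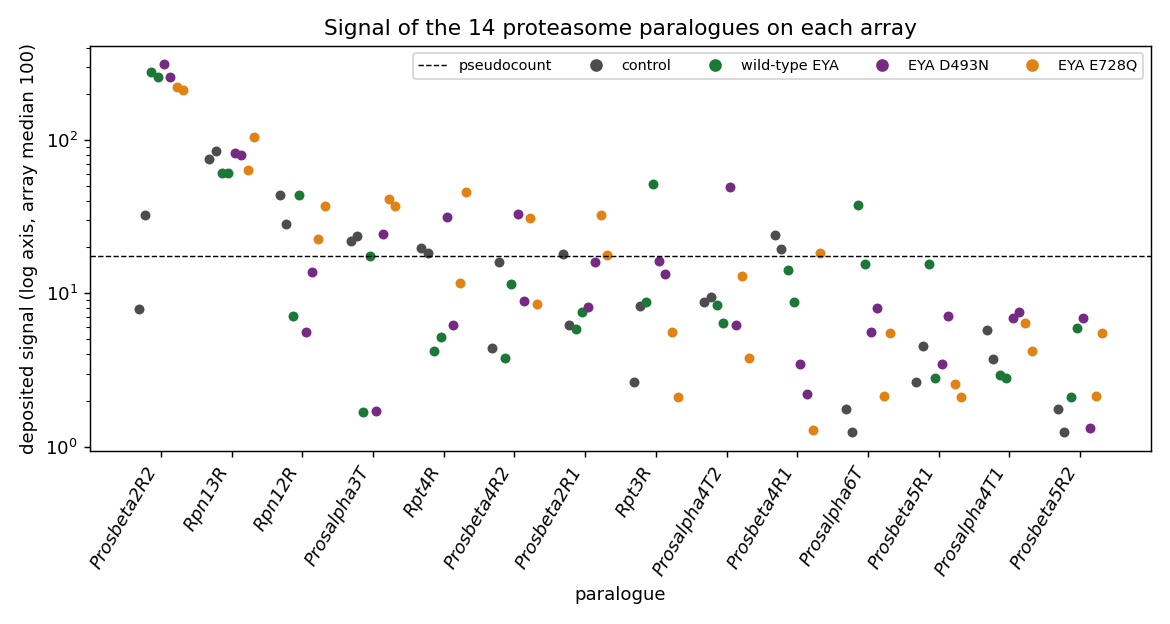
Deposited signal of the 14 paralogues on the 8 arrays, on a log axis, with 1 point per array and the pseudocount of 17.5 as a dashed line. Prosbeta2R2 is at 7.95 and 32.2 on the control arrays and between 211 and 311 on the EYA arrays, while the 12 paralogues from Rpn12R to the right stay at or below 51.4.

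Genes that assemble, activate or serve the proteasome moved in part with it. Of 14 tested, 6 were called lower and 1 higher with D493N, 4 and 1 with E728Q, and 3 and 1 with wild-type EYA, with medians of -0.20, -0.19 and -0.17. Of all probe sets tested, 13.9% were called lower and 14.0% higher with D493N. The shares were 11.7% and 11.8% with E728Q, and 10.9% and 11.4% with wild-type EYA. Counts of every list below stand beside these shares. Uch-L5, the deubiquitinase that docks on Rpn13, gave 767 and 700.4 in the controls, 420.2 and 546 under wild-type EYA, 342 and 387 under D493N, and 533 and 515 under E728Q. All EYA arrays were below control, with log2 fold changes of -0.59 under wild-type EYA, -1.03 under D493N and -0.52 under E728Q (adjusted p = 0.0136, 0.000604 and 0.0229). Rpn13, on which it docks, was not called. The wild-type call of Uch-L5 was lost without either control array or wild-type replicate 1 (values from -0.78 to -0.40 over all alternatives), and the E728Q call without any of the control or E728Q arrays (values from -0.54 to -0.47).

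Sem1, a small lid component whose symbol lies outside the rule, gave 4156 and 3671 in the controls, 2654 and 2818 under wild-type EYA, 2425 and 2721 under D493N, and 2984 and 2781 under E728Q. It behaved like the lid members, with log2 fold changes of -0.43, -0.63 and -0.43 (adjusted p = 0.00617, 0.000637 and 0.00608), of which the first was not called without control replicate 1 or wild-type replicate 1 (values from -0.51 to -0.34) and the last without control replicate 1 or E728Q replicate 2 (values from -0.47 to -0.39). PI31, which binds the 20S core and in flies promotes proteasome activity, went the other way. Its signal was 960.3 and 845 in the controls, 1437 and 1405 under wild-type EYA, 1349.7 and 1157 under D493N, and 1424 and 1351 under E728Q. It was above control on every EYA array and called higher with all 3 transgenes, at 0.66, 0.39 and 0.57 (adjusted p = 0.00118, 0.0145 and 0.0025). The D493N call of PI31 was lost without either control array, at values from 0.27 to 0.50.

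The list of CncC pathway genes held regulators and targets together. Transcript levels do not read CncC activity directly, and the part of CncC in the subunit values was not tested. Of 10 tested, 2 were called lower and 3 higher with D493N, 1 and 2 with E728Q, and 0 and 4 with wild-type EYA. Neither cnc, which encodes CncC, nor its inhibitor Keap1 was called with any transgene. In the same list, maf-S was called higher with all 3 transgenes in limma, and its fits with arrays left out were not read. Its log2 fold changes were 0.29 under wild-type EYA, 0.24 under D493N and 0.30 under E728Q (adjusted p = 0.0183, 0.0386 and 0.0153). Cyp6a2, a detoxification enzyme that CncC is known to induce, gave 539 and 539 in the controls, 1458 and 1141 under wild-type EYA, 449 and 335 under D493N, and 479 and 458 under E728Q. It was higher than control with wild-type EYA (1.24, adjusted p = 0.000365) and lower with D493N (-0.51, adjusted p = 0.0272), a call that was lost without either control array or D493N replicate 2 at values from -0.70 to -0.33. GstD1, another known CncC target, was called lower with E728Q (-0.48, adjusted p = 0.00846) and D493N (-0.34, adjusted p = 0.0358). Trxr1, also of this list, was called higher in limma with wild-type EYA (0.28, adjusted p = 0.0458) and D493N (0.32, adjusted p = 0.0232). With E728Q it was not called (0.23, adjusted p = 0.0898). Its fits with arrays left out were not read. The GstD1 call with E728Q was lost without control replicate 2 or E728Q replicate 1 (values from -0.54 to -0.43), and that with D493N under 11 of the alternatives. The gene gfzf was called higher with all 3, at 0.37, 0.31 and 0.25, and the 3 calls were lost without control replicate 2 among other arrays (adjusted p = 0.00682, 0.0131 and 0.035 with both controls).

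Ubiquitin supply and conjugation genes were read as well. Of all probe sets tested, 10.9% were called lower under wild-type EYA, 13.9% under D493N and 11.7% under E728Q. The shares called higher were 11.4%, 14.0% and 11.8%. Of 13 tested, 0 were called lower and 2 higher under wild-type EYA, 1 and 1 under D493N, and 0 and 1 under E728Q, at medians of 0.03, 0.02 and 0.04. The conjugating enzyme gene Ubc7 was higher with all 3 transgenes, at 0.60, 0.80 and 0.55 (adjusted p = 0.00488, 0.000802 and 0.0071). The last of these was lost without control replicate 1 or E728Q replicate 2 (values from 0.52 to 0.57). Ubc6 was lower with D493N (-0.37, adjusted p = 0.00306), and Uba2, an activating enzyme subunit for SUMO, was called with wild-type EYA (0.39, adjusted p = 0.0329), which was lost without control replicate 2 or either wild-type array (values from 0.28 to 0.49).

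The segregase p97 extracts proteins and hands them to the proteasome with the help of cofactors. Of 8 genes of this list tested, 1 was called lower and 2 higher under wild-type EYA, 1 and 3 under D493N, and 2 and 2 under E728Q. The shares of all probe sets tested were 10.9% and 11.4%, 13.9% and 14.0%, and 11.7% and 11.8%. The p97 cofactor gene p47 gave 1573 and 1469.8 in control and between 3899.6 and 5025 on the 6 EYA arrays, and no control overlapped them. It was called at 1.52 under wild-type EYA, 1.56 under D493N and 1.46 under E728Q (adjusted p = 3.44e-05, 2.4e-05 and 4.24e-05). Npl4 was called higher at 0.55, 0.44 and 0.78, while its partner Ufd1 was called lower with D493N (-0.60) and E728Q (-0.52). The D493N calls of Npl4 and Ufd1 were lost without control replicate 1 (values from 0.29 to 0.59 and from -0.76 to -0.45). The E728Q call of Ufd1 was lost without either control array or E728Q replicate 2 (values from -0.64 to -0.41), and the wild-type call of Npl4 without wild-type replicate 1 (values from 0.40 to 0.70).

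Other multi-subunit complexes served as a comparison. The COP9 signalosome, built on the same plan as the lid, had 8 genes tested, of which 1 was called lower with D493N and 1 with E728Q, both times CSN8, and 0 with wild-type EYA. Its medians were 0.06 under wild-type EYA, 0.11 under D493N and 0.03 under E728Q, and CSN3 was called higher with all 3 (0.85, 0.79 and 0.68). The translation factor eIF3, whose subunits include homologues of lid subunits with PCI domains, had 3, 4 and 3 of 13 called lower and 1, 2 and 1 higher, at medians of -0.16, -0.20 and -0.08. Its subunits eIF3h and eIF3m fell with all 3 transgenes (-0.49, -0.34 and -0.39 for eIF3h, -0.49, -0.32 and -0.31 for eIF3m), and eIF3a rose (0.42, 0.52 and 0.41). Without control replicate 1, the D493N calls of CSN8, eIF3h and eIF3m were lost (values from -0.43 to -0.30, from -0.38 to -0.29 and from -0.36 to -0.28), as were the E728Q calls of CSN8 and eIF3m (values from -0.43 to -0.28 and from -0.38 to -0.27).

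The chaperonin CCT, a ring complex that folds actin and tubulin, had 5 of 8 genes called higher with D493N, against 14.0% of all probe sets tested. With wild-type EYA and E728Q 0 were called in limma, and 3 and 1 were higher at an unadjusted p under 0.05. Its medians were 0.37 with D493N, 0.24 with wild-type EYA and 0.17 with E728Q. For all 5 genes called, D493N replicate 1 had a higher signal than replicate 2. The signals were 2651 and 1946 for CCT1, 5201 and 4176 for CCT2, 1780 and 1665 for CCT3, 2907 and 2246 for CCT5, and 3272 and 2448 for CCT8. For CCT8, D493N replicate 2 lay below both E728Q arrays (2722 and 2449.6). D493N replicate 1 was also the array with the 18S rRNA 5' signal of 5619. Without control replicate 1 the D493N calls of CCT1, CCT2 and CCT8 were lost, as were those of CCT2 and CCT8 without control replicate 2, at values over all alternatives from 0.41 to 0.90, from 0.32 to 0.70 and from 0.26 to 0.72. The V-ATPase, a proton pump, had 0 of 14 called in limma under wild-type EYA (1 lower and 2 higher at an unadjusted p under 0.05), 2 lower and 2 higher under D493N, and 1 and 1 under E728Q, at medians of 0.02, 0.02 and 0.06. At -0.44, the median of the standard proteasome subunits with D493N was below the medians of all these lists, and no difference between lists was tested.

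**Figure D4:**
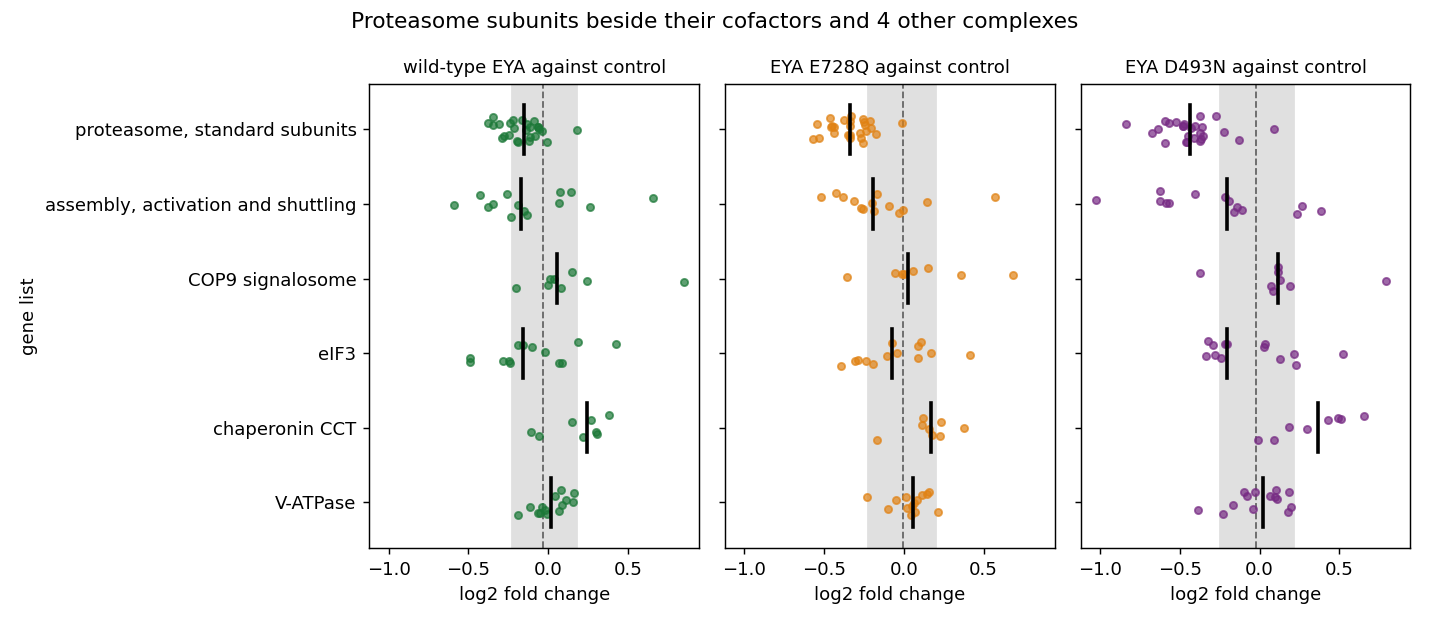
Each point is the log2 fold change of a gene against control and each black bar the median of its list. The grey band spans the middle part of all probe sets tested, from the 25th to the 75th percentile, and the dashed line their median. With D493N the proteasome median is at -0.44 and that of the chaperonin CCT at 0.37, and most proteasome points lie left of the band.

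Cell type markers were set beside these values. Over all probe sets tested, 10.9% were called lower under wild-type EYA, 13.9% under D493N and 11.7% under E728Q. The shares called higher were 11.4%, 14.0% and 11.8%. Most marker lists are short, so a single call is a large share of a list. The 4 head-defining markers were well above the array median, with summed signals between 19837 and 27477, and D493N replicate 1 had the lowest. Fat body markers, 8 genes, included 5 called lower and 1 higher under wild-type EYA, 4 and 1 under D493N and 5 and 1 under E728Q. Glial markers had 1 of 5 lower and 1 higher under wild-type EYA, 3 and 2 under D493N, and 1 and 1 under E728Q. Of 5 neuronal markers 1 was lower with each transgene, 1 of 5 haemocyte markers was lower and 2 were higher with each, and midgut markers had 1, 1 and 0 of 5 lower. Of 2 photoreceptor markers 1 was higher with E728Q. None of the muscle, female germline and testis markers tested (3, 8 and 4 genes) was called in limma, and at an unadjusted p under 0.05 only 1 muscle marker was lower, with wild-type EYA and with E728Q. Female germline markers, which flag ovary RNA, summed to 302 and 2028 on the control arrays, 840 and 1483 under wild-type EYA, 853 and 467 under D493N, and 386 and 581 under E728Q. The higher of the control sums belonged to replicate 2, which had the lower subunit signals. The part of cell composition in the subunit values was not tested.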

How the data were processed

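The deposited files give 1 intensity value per probe set and array on a linear scale, with the median of each array at 100, and the submitters' processing notes name GCOS, the Affymetrix software. How GCOS was set is not stated in the sources used here. After removal of 183 Affymetrix controls and quantile normalization, a pseudocount of 17.5 (percentile 25 of the deposited values) was added and log2 taken. A filter kept the 60% brightest by mean, 11261 of 18769 probe sets, for 1 limma 3.58.1 model of all 8 arrays under R 4.3.3, with 4 residual and 4.75 prior degrees of freedom and a variance prior that follows the mean. Adjusted p-values (two-sided, Benjamini-Hochberg, over the probe sets that passed the filter) were read at 0.05. Signals and sums are deposited values, and fold changes are of normalized values, on the log2(value + 17.5) scale. The fit was tested on simulated data.

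Current symbols came from the array annotation, updated by gene identifier through RefSeq's table for the assembly Release 6 plus ISO1 MT, which served for names and the order of neighbouring genes. Exactly 1 symbol is given for 13647 probe sets, several for 402, and 4903 are not in the annotation. The members and gene lists were chosen with earlier results of these data known. Values on every array are given for the 3 members of largest mean change in each class, catalytic subunits, Rpn11, Rpn13, members called between transgenes or never, and paralogues. Up to 3 called genes per list are named, and maf-S, Trxr1, CCT3 and CCT5 in addition. The labels do not say that replicate numbers pair the samples, so the main model does not pair them. Correlations of the deviations of same-numbered samples lay between -0.14 and 0.09, which cannot exclude a shared day. With 2 arrays per group, their number limits the precision. Alternatives were no quantile normalization, pseudocounts of 5 and 50, other filters, a replicate block, only the groups compared, and each array left out.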

Additional observations from a re-analysis of the deposited data

How the results depend on the processing

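Over the 28 members tested, 8 fits that each left out 1 array gave 0 to 9 members called lower with wild-type EYA, 12 to 24 with D493N and 6 to 24 with E728Q. Those called higher with wild-type EYA were 1 to 2, those lower with D493N against wild-type EYA 0 to 9 and against E728Q 0 to 1. The medians ran from -0.38 to -0.24 for E728Q and from -0.32 to -0.20 for D493N against wild-type EYA. On the deposited values, 13 members were called lower with E728Q and 0 with D493N against wild-type EYA, and the medians were -0.22 with wild-type EYA, -0.16 for D493N and -0.085 for E728Q against wild-type EYA. With all probe sets tested, 2 members were called higher with wild-type EYA (the second was the low Prosalpha6T), 0 were lower with D493N against wild-type EYA, and the E728Q median, now over all 40 members, was -0.25. With the 40% of highest mean, which leaves out Prosbeta2R2, 0 were called higher with each transgene. In fits of only the 2 groups compared, 2 were higher with wild-type EYA (Rpn13 was added) and 0 were lower with D493N against wild-type EYA. The replicate block, for numbers that the labels do not describe as pairs, gave 4, 23 and 18 members called lower against control in the order wild-type EYA, D493N, E728Q. It gave 0 with D493N against wild-type EYA.

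No called value reversed. Values near 0 that changed sign did so where 1 array was left out. With wild-type EYA these ranged from -0.16 to 0.032 for Prosalpha7, from -0.090 to 0.011 for Rpt4, from -0.17 to 0.0060 for Rpn1, from -0.17 to 0.042 for Prosbeta6, from -0.073 to 0.058 for Rpn6, and from -0.071 to 1e-04 for Ubc6. With D493N they ranged from -0.30 to 0.041 for Prosbeta6 and from -0.048 to 0.071 for Rpn13R. With E728Q they ranged from -0.27 to 0.31 for Rpn13R and from -0.043 to 0.022 for Rpn13, which was also 0.0059 on the deposited values. Apart from the effect of fewer arrays or other probe sets in a fit, the cause was not tested. Signals of paralogues at or below the pseudocount have no order.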
